A study of Equus caballus with 4 samples.

Results

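The myosin light chains and their kinases were followed in differentiating equine satellite cells, the stem cells of skeletal muscle, after exposure to gamma-oryzanol (GO), a mixture of ferulic acid esters from rice bran. The genes were chosen by name: *MYL1*, *MYLPF*, *MYL2*, *MYL3*, *MYL4*, *MYL6*, *MYL6B*, *MYL9*, *MYLK* and *MYLK2*. Of these 10 genes, 8 were found by the gene symbol printed for 16 noncontrol probes. *MYLPF* (listed by RefSeq as MYL11) and *MYL9* carry only a gene number in the files, and their 2 probes were named by that number and by the description in the files. All 10 genes, with 18 probes, were thus found among the 14594 genes with a symbol on the array. Of those, 9 members were tested with 13 probes, among 9502 genes tested.

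Cells from horse semitendinosus muscle received 125 nM GO for 24 h in differentiation medium, or the vehicle DMSO (0.04 μl/ml), and were taken on day 3 of differentiation. Both were hybridized together on 4 two-color arrays, always with Cy5 for GO-treated and Cy3 for control cells. The dyes were never swapped, so dye bias of a probe and the effect of GO cannot be told apart. The sources call the arrays biological replicates, but the methods also speak of 1 chosen cell line, so the p-values measure the spread between these 4 arrays, which may be partly technical. The titles number the control RNA 1 to 4, but the descriptions of arrays 2 to 4 give it the number 1. If 1 control RNA was used on all arrays, the 4 control signals would be repeats of 1 sample, which was not settled.

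A muscle myosin molecule has a pair of heavy chains, and each heavy chain binds an essential and a regulatory light chain at its lever arm. The light chains stiffen that arm and tune its force and speed, and different genes supply them in fast, slow and embryonic muscle and in nonmuscle cells. Light chain kinases, switched on by calcium signals, phosphorylate the regulatory light chains. In smooth muscle and nonmuscle cells this switches contraction on, whereas in skeletal muscle it strengthens it. Differentiating muscle cells express embryonic, fast and slow light chains side by side before the fiber types part.

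The probes of the striated light chains lie in coding sequence of related genes, and are shown because their likeness bears on how far each reports 1 gene. The probes of *MYL1* and *MYL4*, both essential light chains, end on the stop codon (bases 58 to 60) and match in 50 of 60 bases with no gap, with 21 identical bases in the longest run. Capitals mark the bases that differ.
MYL1: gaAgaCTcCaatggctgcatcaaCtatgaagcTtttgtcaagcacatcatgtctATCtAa
MYL4: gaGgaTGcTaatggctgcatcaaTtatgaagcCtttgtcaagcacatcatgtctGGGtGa
The probes of the regulatory light chains *MYL2* and *MYLPF* overlap over 57 bases at an offset of 3 and match in 39 of them. The stop codon stands at bases 55 to 57 of the *MYL2* probe and at bases 58 to 60 of the *MYLPF* probe. Capitals mark bases that differ or fall outside the overlap.
MYL2: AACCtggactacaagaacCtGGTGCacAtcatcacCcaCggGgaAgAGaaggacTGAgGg
MYLPF: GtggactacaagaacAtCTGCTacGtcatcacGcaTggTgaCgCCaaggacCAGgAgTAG
A further pair, *MYL3* and *MYL6B*, overlaps over 45 bases and matches in 32 of them. Whether RNA of 1 gene also bound the probe of its relative was not tested. Every other pair of member probes matched in at most 27 bases.

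On EquCab1, the build of the array files, the *MYL1* probe lies on the minus strand of chromosome 6 between 1026937 and 1029285, and *MYL4* on the minus strand of chromosome 11 between 16047778 and 16048383. Both spans are longer than the 60 bases of a probe, so that each crosses at least 1 intron. The same holds for *MYL3* on chromosome 16 (39990724 to 39993217) and for *MYL6B* on unplaced sequence (195371613 to 195372625). *MYL2* on chromosome 8 (20923471 to 20923530), *MYLPF* on the minus strand of chromosome 13 (6652175 to 6652234), *MYL9* on chromosome 22 (27127145 to 27127204) and *MYLK* on chromosome 19 (32058194 to 32058253) span exactly 60 bases. The 5 *MYL6* probes are shifted by 1 base from one to the next on the same unplaced sequence (195377601 to 195377664) and so are nearly 1 probe. *MYL6* and *MYL6B* are neighboring genes.

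In GO-treated cells 4 striated muscle light chains were lower than in control cells: *MYLPF*, *MYL3*, *MYL2* and *MYL4*, by 1.39 to 1.46 times. A gene was counted as changed when its brightest tested probe reached an adjusted p of 0.05 or less together with a 1.3-fold difference, which is 0.38 on the log2 scale. The test was limma on the 4 log2 ratios (GO-treated over control), two-sided, with Benjamini-Hochberg adjustment over all 26832 tested probes. Thus 4 of the 9 tested members were lower, beside 5.37% of all genes tested. Of the members 0 were higher, beside 3.30% of all genes. At an unadjusted p under 0.05 in the same test, 5 members were lower and 1, *MYL9*, was higher. The share of all genes at that threshold was not counted, so no excess can be read from these counts. The median log2 ratio of the 9 members was -0.32, and that of all genes was 0.00. With the 8 genes named by symbol alone, 3 were lower. These calls depend on the processing. With a plain one-sample test, without limma's shared variance, 0 members passed both thresholds. Without the pairing by array 1 member was lower (*MYLPF*). The deposited ratios also hold a lowess dye normalization. With median centring in place of lowess, 1 of the 4 remained lower (*MYL3*), and *MYLPF* turned to a log2 ratio of 0.38, higher in GO-treated cells.

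**Figure D1:**
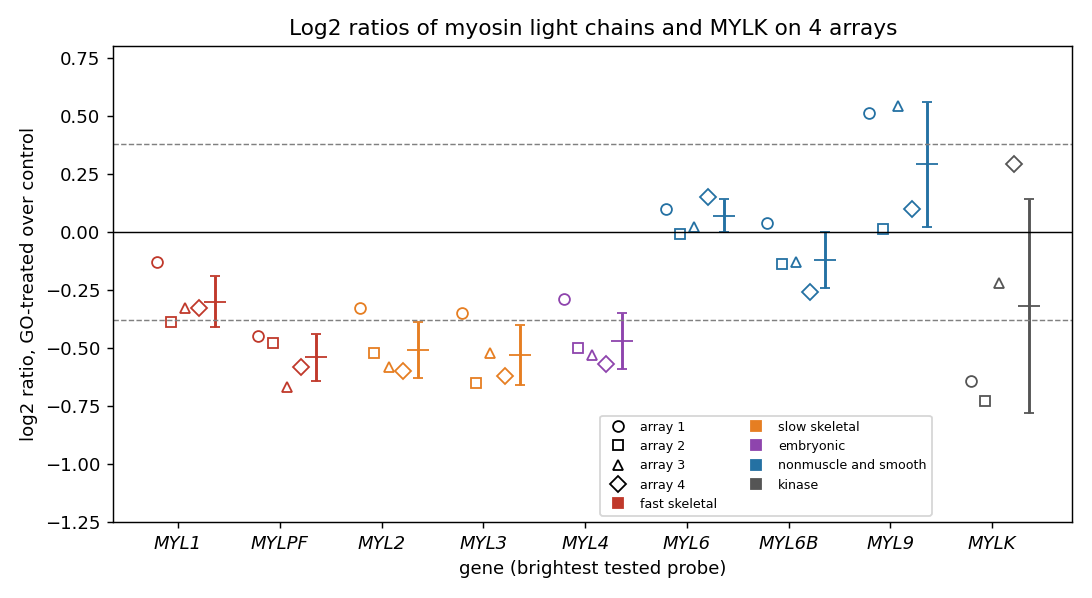
Log2 ratio of GO over control (y axis) for the brightest tested probe of each gene (x axis) on arrays 1 to 4 (symbols), with the mean and SD (n = 4) to the right of the points. Colors give the class of light chain and the dashed lines the fold change threshold of 1.3. The 5 striated light chains lie below 0 on all 4 arrays, whereas *MYL6*, *MYL6B* and *MYL9* lie between -0.26 and 0.54. With median centring in place of lowess *MYLPF* lies above 0.

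Among the fast skeletal light chains, *MYLPF* encodes the regulatory chain of fast fibers. Its processed signals, in arbitrary units, were 154081, 173932, 192937 and 136048 in control cells on arrays 1 to 4. In GO-treated cells they were 112455, 125022, 121087 and 91230. Every GO signal was thus below every control signal. On the 4 arrays the log2 ratio was -0.45, -0.48, -0.67 and -0.58, with a mean of -0.54 ± 0.10 (SD, n = 4; adjusted p = 0.00507, limma). This probe was among the brightest, with 27 of 26832 tested probes above it. How well a dye curve holds in that range was not tested. After normexp background correction and loess its log2 ratio was -0.13 (adjusted p = 0.0937).

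*MYL1* encodes the essential light chains of fast fibers. Control signals were 12802, 14392, 13606 and 10534, and GO signals 11665, 10959, 10805 and 8376, so that the channels overlapped across arrays although GO was lower on each. Log2 ratios of -0.13, -0.39, -0.33 and -0.33 resulted, with a mean of -0.30 ± 0.11 (SD, n = 4). *MYL1* passed the adjusted p (0.0281, limma), as 9.38% of all genes did in the same direction, but its 1.23-fold difference stayed under the fold change threshold. The adjusted p was above 0.05 without array 2, 3 or 4 (0.119, 0.103 and 0.0798).

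Among the slow light chains, *MYL2* encodes the regulatory chain of slow skeletal and ventricular muscle. Its control signals were 31763, 39948, 36028 and 31357, and its GO signals 25189, 27822, 24154 and 20736. The channels did not overlap. Log2 ratios were -0.33, -0.52, -0.58 and -0.60, with a mean of -0.51 ± 0.12 (SD, n = 4; adjusted p = 0.00654, limma). It was -0.46 and still past both thresholds after normexp and loess, but -0.15 (adjusted p = 0.127) with median centring alone.

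*MYL3*, the essential partner of *MYL2* in slow and ventricular muscle, gave control signals of 715, 861, 694 and 607 and GO signals of 561, 549, 482 and 396. Again every GO signal lay below every control signal. On arrays 1 to 4 the ratios on the log2 scale were -0.35, -0.65, -0.52 and -0.62, with a mean of -0.53 ± 0.13 (SD, n = 4; adjusted p = 0.0064, limma). This was the member whose call held under all 3 normalizations, at -0.53, -0.46 and -0.56.

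*MYL4* encodes the essential light chain of embryonic skeletal muscle and of the atrium. Control signals were 37214, 44851, 43230 and 33298, and GO signals 30429, 31622, 29946 and 22490, with no overlap. The log2 ratio was -0.29, -0.50, -0.53 and -0.57, with a mean of -0.47 ± 0.12 (SD, n = 4; adjusted p = 0.00811, limma). After normexp and loess it was -0.40 and past both thresholds, and with median centring alone -0.05 (adjusted p = 0.574). Non-overlapping channels with GO lower were found for 4 members, the 4 called, and for 4.86% of all genes. The smallest difference of *MYL1*, *MYL2*, *MYL3* and *MYL4* was that of array 1.

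**Figure D2:**
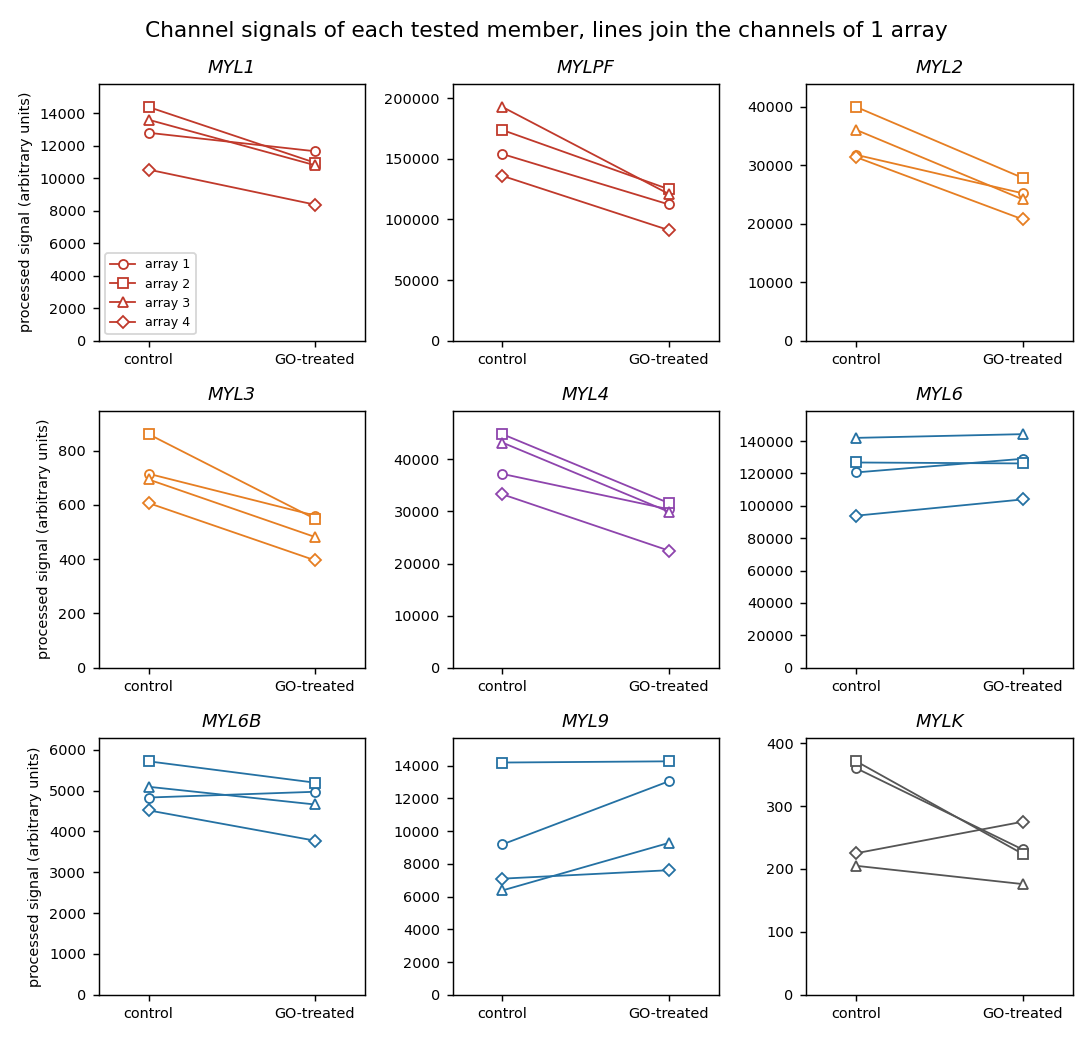
Processed signal in control and GO-treated cells (x axis) for each tested gene, in arbitrary units from 0 (y axis, a scale of its own in each panel). Each line joins the channels of 1 array. The lines of *MYLPF*, *MYL2*, *MYL3* and *MYL4* fall on all 4 arrays to signals below every control signal, and those of *MYL6* and *MYL9* do not, in signals that hold the lowess normalization.

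The 3 nonmuscle and smooth muscle light chains did not pass the test in the deposited ratios. *MYL6* encodes the essential light chain of nonmuscle and smooth muscle myosin. Its brightest probe gave control signals of 120664, 126794, 142010 and 93936 and GO signals of 129075, 126213, 144306 and 103960. The log2 ratio was 0.10, -0.01, 0.02 and 0.15, with a mean of 0.07 ± 0.07 (SD, n = 4), a 95% confidence interval of -0.07 to 0.20 and an adjusted p of 0.465 (limma). The 5 overlapping probes lay between 0.07 and 0.13, with adjusted p from 0.14 to 0.465. The value moved with the dye normalization: it was 0.44 after normexp and loess and 0.95 with median centring alone, past both thresholds in each.

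*MYL6B*, an essential chain of nonmuscle and slow muscle myosin, had control signals of 4514 to 5714 and GO signals of 3773 to 5192, which overlapped. Its log2 ratio was -0.12 ± 0.12 (SD, n = 4), with a 95% confidence interval of -0.28 to 0.04 and an adjusted p of 0.245 (limma). It was lower on 3 arrays and higher, at 0.04, on array 1.

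*MYL9* encodes the regulatory light chain of smooth muscle. Control signals were 9194, 14197, 6381 and 7101, and GO signals 13050, 14271, 9283 and 7617. The log2 ratio was 0.51 and 0.54 on arrays 1 and 3 but 0.01 and 0.10 on arrays 2 and 4, so that the arrays fell apart. The mean was 0.29 ± 0.27 (SD, n = 4; adjusted p = 0.106, limma). With median centring alone *MYL9* was 0.42 and past both thresholds (adjusted p = 0.0262).

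Within each array, ratios of different genes can be set against each other. The mean log2 ratio of the fast light chains minus that of the nonmuscle ones was -0.51, -0.39, -0.65 and -0.45 on arrays 1 to 4, with a mean of -0.50 ± 0.11 (SD, n = 4). For the slow light chains the difference was -0.60 ± 0.07, and for embryonic *MYL4* it was -0.55 ± 0.09. All 3 classes of striated light chains were thus below the nonmuscle class on every array in the deposited ratios. The striated classes lay close together: fast minus slow was 0.10 ± 0.06, and embryonic minus slow 0.05 ± 0.03. The gaps moved with the normalization. Fast minus slow became 0.23 after normexp and loess and 0.47 with median centring alone. Under those settings fast minus nonmuscle was -0.40 and -0.31, slow minus nonmuscle -0.63 and -0.78, and embryonic minus nonmuscle -0.56 and -0.48. Because the classes were chosen with earlier results of these arrays known, these differences carry no test.

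A dye curve that depends on brightness acts alike on probes of similar brightness. Pairs made of a striated and a nonmuscle light chain of near brightness were therefore compared, the pairs being chosen after their values were seen. *MYLPF* and *MYL6* had 27 and 69 of the 26832 tested probes above them. *MYLPF* minus *MYL6* was -0.55, -0.47, -0.70 and -0.72 on the 4 arrays, a mean of -0.61 ± 0.12 (SD, n = 4). That difference was -0.57 after normexp and loess and -0.57 with median centring alone. *MYL1* and *MYL9*, with 1921 and 2189 probes above them, differed by -0.59 ± 0.22, which was -0.58 and -0.57 under the same settings. Since the curve acts alike on both genes of such a pair, little movement between settings follows from how the pairs were made, and the values describe the difference within an array alone.

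**Figure D3:**
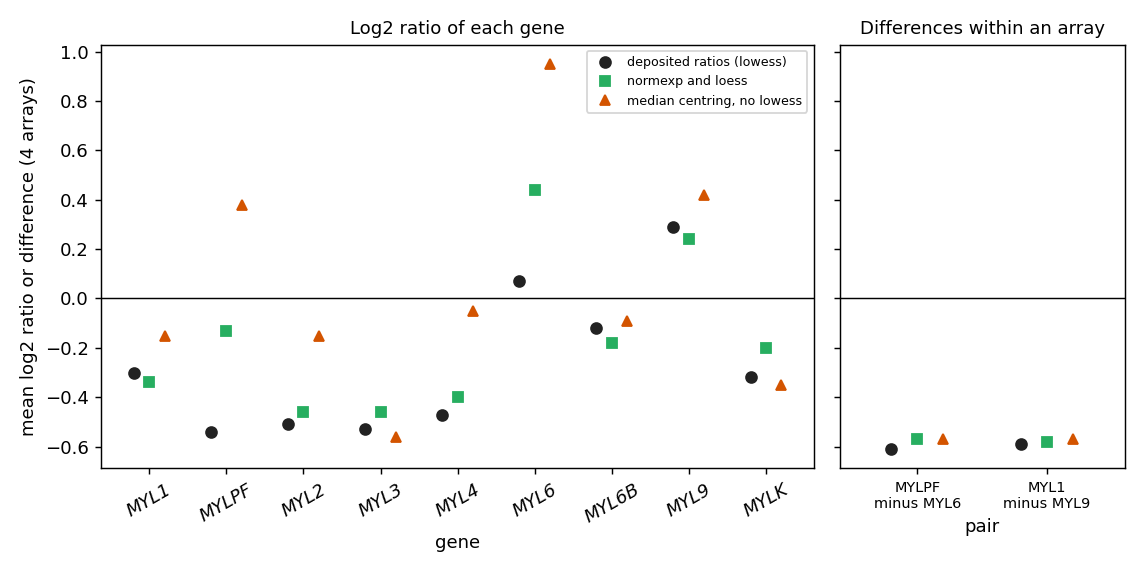
Left, mean log2 ratio of GO over control (y axis, n = 4 arrays) of each gene (x axis) with the deposited lowess-normalized ratios, after normexp and loess, and with median centring without lowess. Right, mean difference of log2 ratios within an array for 2 pairs of genes of near brightness. *MYLPF* runs from -0.54 to 0.38 and *MYL6* from 0.07 to 0.95, and both pair differences lie between -0.61 and -0.57. The pairs were chosen after their values were seen, and their small movement follows from their near brightness.

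Of the 2 kinases 1 could be tested. *MYLK* encodes the light chain kinase of smooth muscle and nonmuscle cells. Its control signals were 360, 371, 205 and 225, and its GO signals 231, 224, 176 and 275, well above background in both channels on all 4 arrays. The log2 ratio was -0.64, -0.73, -0.22 and 0.29, with a mean of -0.32 ± 0.46 (SD, n = 4), a 95% confidence interval of -0.72 to 0.07 and an adjusted p of 0.208 (limma). Array 4 went against the others, and without it the log2 ratio was -0.53 and past both thresholds (adjusted p = 0.0346, limma). Without array 1, 2 or 3 it was -0.22, -0.19 and -0.36 and did not pass (adjusted p = 0.454, 0.526 and 0.307, limma). *MYLK2*, the kinase of skeletal muscle fibers, has 5 overlapping probes on chromosome 22 (22818962 to 22820014). None of the 5 was well above background in either channel on any of the 4 arrays, so that no ratio is given.

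**Figure D4:**
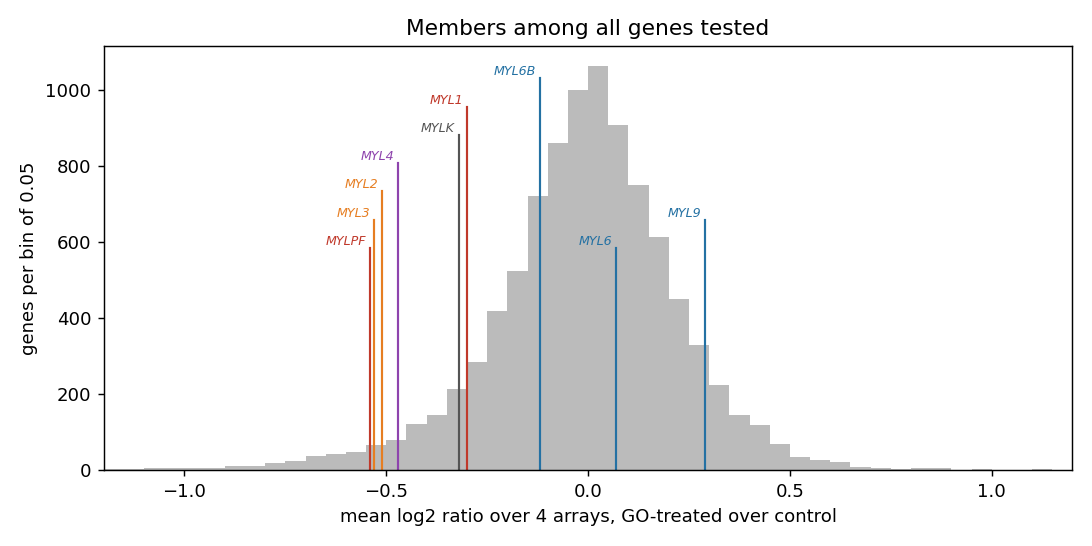
Number of genes (y axis) by mean log2 ratio of GO over control in bins of 0.05 (x axis), 1 probe for each of 9502 genes. Colored lines mark the 9 tested members, of which *MYLPF*, *MYL3*, *MYL2* and *MYL4* lie between -0.54 and -0.47 and the 10th percentile of all genes is -0.29. These are the deposited ratios, and *MYLPF* turns to 0.38 with median centring alone.

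Around these genes stand further light chains, kinases, small GTPases, other regulators and the subunits and inhibitors of myosin phosphatase, which removes the phosphate again. Of 38 such genes 33 had a probe and 27 were tested. Both thresholds were passed by 2 lower and 0 higher genes, with 22 passing neither, and the median log2 ratio was 0.02. These 2 of 27 stand beside the 5.37% of all genes that were lower. At an unadjusted p under 0.05, 7 of the 27 were lower and 2 higher. The share of all genes at that threshold was not counted, so no excess can be read from these counts. Among the lower genes was *PRKG1*, a cyclic GMP-dependent kinase that acts on myosin phosphatase in smooth muscle. It gave -0.53, -0.19, -0.44 and -0.49 (adjusted p = 0.0156, limma) and was -0.27 after normexp and loess. The adjusted p alone was passed by 3 further genes, in both directions. Of all genes 9.38% were lower at the adjusted p, those past both thresholds included. *MYL5*, *MYL7* and *MYL10* did not pass the filter on dim probes, and *MYL12A*, a nonmuscle regulatory chain named here by its description, had a log2 ratio of -0.12 ± 0.11 (adjusted p = 0.234, limma).

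Over the 8 channel values, the gene most like *MYLPF* was mitochondrial *COX2*, with a Pearson r of 0.997 over the log2 signals. It was followed by *TNNI2*, the fast skeletal troponin I (0.995), *ACTG2*, a smooth muscle actin (0.992), and *LGALS3BP* (0.988). Among members, *MYL4* came nearest at rank 9 of 9501 genes (0.977), then *MYL2* at rank 29 (0.949), *MYL1* at rank 120 (0.902) and *MYL3* at rank 131 (0.899). The nonmuscle light chains gave 0.727 (*MYL6B*, rank 757), 0.368 (*MYL6*) and -0.086 (*MYL9*), and *MYLK* gave 0.223. The 8 values share 4 arrays, so these correlations hold the brightness of each array as well as GO, and they are given as a description.

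The tested markers of differentiating muscle had mean log2 ratios of -1.08 to -0.30, but not all passed the thresholds. Of 10 such markers 8 had a probe, all well above background, and 5 were lower in GO-treated cells (*DES*, *MYOG*, *ACTA1*, *MYH3* and *MYH8*). These 5 stand beside the 5.37% of all genes that were lower. *TNNT3* (-0.37) passed the adjusted p alone (0.0236, limma). *MYOD1* (-0.36, adjusted p = 0.0905, limma) and *CKM* (-0.30, adjusted p = 0.113, limma) passed neither threshold. Both were higher on array 1, at 0.11 and 0.13, where the striated light chains were lower. With median centring alone *DES* (-0.37), *ACTA1* (-0.11) and *MYH3* (-0.19) no longer passed both thresholds, whereas *MYOG* and *MYH8* did. After normexp and loess *MYOG* was -0.35, under the fold change threshold. *DES*, *ACTA1*, *MYH3* and *MYH8* passed both there, and so did *TNNT3* (-0.42). The summed signal of the 8 was 160592 to 221831 in control and 95377 to 134278 in GO-treated cells. Of 5 satellite cell markers, *MYF5* and *NCAM1* had a probe, and both were lower. Of 5 fibroblast markers tested, *PDGFRA* was higher and 4 did not pass, with a summed signal of 184625 to 302303 in control and 195644 to 276728 in GO-treated cells. *PDGFRA* was 0.37 after normexp and loess, under the fold change threshold, whereas *COL1A2* was 0.40 there and 0.95 with median centring alone, past both thresholds in each. *DCN* (0.70) also passed with median centring alone. The 4 smooth muscle and myofibroblast markers tested had log2 ratios of 0.05 to 0.21 and did not pass, with summed signals of 38886 to 62283 in control and 42076 to 56480 in GO-treated cells. Of these *TAGLN* passed with median centring alone, at 0.46. Endothelial (0 of 4) and adipocyte (0 of 2) markers were not well above background, 3 of 4 leukocyte markers were, and so were *TNNI3* and *NPPA* of the cardiac list, whose summed signal was 151 to 239 in control and 143 to 217 in GO-treated cells. The part of these markers in the light chain values was not tested. In bulk RNA, fewer muscle cells and less light chain RNA per muscle cell cannot be told apart.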

How the data were processed

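RNA of GO-treated cells (Cy5) and control cells (Cy3) was hybridized to 4 Agilent horse arrays. The authors processed the scans with Feature Extraction (version 10.10.1.1 per the file headers, which differs from the version in the methods). The intensity values deposited by the authors are mean signals with their local backgrounds, signals after background subtraction, and processed signals, which were also detrended and dye-normalized (linear and lowess). The log10 ratios deposited by the authors are processed Cy5 over processed Cy3, and their series table holds the same ratios (180880 of 180880 equal within 1e-06).

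Ratios were converted to log2. The 1417 control spots and 10 to 19 outlier spots per array were left out, repeated spots were averaged, and 0 spots were saturated. Tested were the 26832 of 43603 probes well above background on all 4 arrays in at least 1 channel. The fit used lmFit and eBayes of limma (version 3.58.1, R version 4.3.3) with an intercept alone. The methods supplied the thresholds of 0.05 for the adjusted p and 1.3 for the fold change. With other software the study reported far fewer transcripts at these thresholds, and its table of identified genes names none of the members. In the limma fit used here 2399 probes were past both, 894 higher and 1505 lower. A single dye orientation allowed no dye term, and precision is limited by the number of arrays.

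The brightest tested probe stood for each gene. Symbols came from the files (24962 probes), or through the RefSeq table of assembly TB-T2T by gene number (1684) or accession (436), and for 2 light chain probes from the description. RefSeq gave names and neighbors only. The members and gene lists were chosen with earlier results of these data known. Named were every member, every listed regulator past both thresholds, and the 5 genes most like the called member with the largest log2 ratio in size, except that the results of 2 genes are not reported here. *MYLPF* and *MYL9*, *MYL5*, *MYL7*, *MYL10*, *MYL12A* and single cell type markers were named beyond the symbol match or that rule.

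Both channels of an array were hybridized together, and the ratio pairs them. Deviations from the group means correlated at 0.61, 0.86, 0.71 and 0.48 between channels of the same array, and at -0.53 to 0.25 between arrays (26831 probes). With simulated ratios for 26832 probes and 200 true changes, limma recovered 29.5% of log2 changes of 0.5 and 82.5% of log2 changes of 1. The simulation held far fewer changes than the 2399 probes called in the data and drew noise independently for each probe. Its recovery therefore need not hold for these arrays. The alternatives were normexp (offset 50) with loess, median centring without lowess, centred ratios, other filters on dim probes, array weights, a plain one-sample test, channels without the pairing, each array left out, the series table, and the mean of all probes of a gene. Naming by symbol alone and the differences of gene pairs were added after seeing the data.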

Additional observations from a re-analysis of the deposited data

Results flagged for a closer look

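Each tested member's log2 ratio and log2 signals and each difference, 34 sets of 4 array values, were searched for an array far from the others, which chance finds in about 1 in 20 sets. The GO signal of *MYL4* was the 1 set found. On the log2 scale its gap to the nearest array was 0.840 of the whole range, with array 4 at 22490 and the others at 29946 to 31622. The control signal of *MYL4* was also lowest on array 4, at 33298, and the log2 ratio there, -0.57, was not apart from the others.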

How the results depend on the processing

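With median centring alone 1 member was lower and 3 were higher (*MYLPF* at 0.38, *MYL6* and *MYL9*), and after normexp and loess 3 were lower and 1 was higher (*MYL6*). Over all probes 3306 of 26832 passed in either direction with median centring alone, against 2399 in the deposited ratios. The share of all genes in each direction was not counted under these settings. With median centring the median log2 ratio was 0.21 in the 2684 brightest tested probes and -0.22 in the 2684 dimmest, against -0.03 and -0.07 in the deposited ratios. It moved fast minus nonmuscle to -0.31, slow minus nonmuscle to -0.78, fast minus slow to 0.47 and embryonic minus slow to 0.30, and fast minus slow was 0.23 after normexp and loess. A plain one-sample test without limma's shared variance left 0 members past both thresholds, with 5 lower at an unadjusted p under 0.05. The share of all genes at an unadjusted p was not counted in any setting, so no excess can be read from such counts. Without the replicate block, the channels being tested without their pairing by array, 1 member (*MYLPF*) and 1 regulator were lower. Over all probes 922 then passed in either direction. This setting keeps the ratios, so the class differences could not move. With each array left out in turn, 4 to 5 members were lower and 0 higher, 1 to 2 regulators were lower (1 without array 3), and 1566 to 2430 probes passed (1566 without array 2). Fast minus nonmuscle then ran from -0.54 to -0.45, slow minus nonmuscle from -0.62 to -0.57, and *MYLPF* minus *MYL6* from -0.66 to -0.57. Of the regulators 0 were lower after normexp and loess (9 at an unadjusted p under 0.05), and 1 with no filter on dim probes, with array weights, with the plain test, with the mean of all probes of a gene, or with median centring, where 1 was higher. Over all probes 1297 passed after normexp and loess, 908 with no filter, 147 with the plain test and 4859 with the adjusted p alone. The other settings kept each count of members lower at 3 to 5. Except where stated, the cause of a move was not tested.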
